A study of Mus musculus with 4 samples.

Results

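The genes described here are the receptors through which interferons act and the transcription factors that carry their signal, measured in the mouse colonic epithelium. The set held 9 of the 18194 named genes on the array. Of these, 4 are receptor chains (Ifnar1, Ifnar2, Ifngr1 and Ifngr2) and 5 are transcription factors (Stat2, Irf1, Irf7, Irf8 and Irf9). Members were taken by gene symbol, as all probe sets annotated to 1 of these symbols alone, which gave 15 probe sets. A probe set is a group of short probes that together read 1 transcript or a few.

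Interferons are secreted antiviral proteins. Type I interferons (interferon alpha and beta) bind the receptor made of Ifnar1 and Ifnar2, and interferon gamma binds the receptor made of Ifngr1 and Ifngr2. Janus kinases at the receptors then phosphorylate STAT proteins. Type I interferon yields a complex of Stat2, a second STAT protein and the DNA-binding subunit Irf9, which binds interferon-stimulated response elements (ISRE), whereas interferon gamma yields a STAT dimer that binds gamma-activated sites (GAS). Several of the factors are themselves interferon-induced: Irf7 is the amplifier of type I interferon production, and Irf1 an early target of interferon gamma. In the intestine, epithelial cells answer interferons with antiviral genes, and type III interferons (interferon lambda), which use Ifnlr1 and Il10rb, act mainly on epithelium.

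Expression was read on 4 arrays, all of RNA from male mice, in 2 pairs with 1 array for each group. In the first pair, H2B-GFP mice carried a histone H2B-GFP fusion under a tetracycline-responsive element, were given doxycycline for 7 days and then went 2 days without it. Crypt epithelial cells that had retained the label (GFPhigh, non-proliferating) were separated by flow cytometry from cells that had diluted it (GFPlow, proliferating). The second pair came from mice with a doxycycline-inducible β-catenin gene, the effector of canonical Wnt signalling. Crypts were isolated from untreated mice (Dox minus) or from mice that drank 2.0 mg/ml doxycycline for 5 days (Dox plus). Both H2B-GFP groups had therefore received doxycycline, but of the β-catenin mice only Dox plus had, so that doxycycline and β-catenin induction cannot be told apart in the second pair. The promoter that drives the inducible system, the age and strain of the mice, and the number of mice per array are not stated by the labels.

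Values are log2 expression values, in which 1 unit is a 2-fold difference. A value of 5 was taken as the floor of reliable measurement, and a gene counted as measured in a pair when at least 1 of the 2 arrays reached it. Differences are GFPlow minus GFPhigh and Dox plus minus Dox minus. A difference of 1 or more in size is called at least 2-fold. With 1 array per group there was no replicate error and no test, so each difference compares 2 arrays. In such bulk samples, fewer cells of a type and less RNA per cell cannot be told apart.

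Array medians ran from 3.35 to 3.52, and 37.6% to 38.7% of probe sets reached the floor. The arrays of a pair correlated at r = 0.985 over all probe sets (both pairs), and arrays of different pairs at r = 0.930 to 0.941. The 3 control probe sets for 18S ribosomal RNA averaged 13.03 and 13.29 in the GFP pair but 3.25 and 2.56 in the Dox pair, so levels are set side by side across pairs only as values. All 8 epithelial markers (Epcam, Cdh1, Krt8, Krt18, Krt19, Krt20, Vil1 and Cdx2) were well above the floor on every array, between 10.25 and 15.72.

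Promoter sequences of 4 of the factors are shown, because ISRE and GAS elements are the sites through which interferon signalling reaches its target genes and because these 4 factors ranged from the most to the least different after doxycycline. Each window runs 5′ to 3′ from 250 bases before to 50 bases after an annotated transcription start (RefSeq, GRCm38.p6). Capitals mark matches on either strand to ISRE, read as TTTC and TTTC with any 2 bases (NN) between them, or to GAS, read as TTC and GAA with any 3 bases (NNN) between them.
Stat2 (chr10:128270248-128270547, plus strand): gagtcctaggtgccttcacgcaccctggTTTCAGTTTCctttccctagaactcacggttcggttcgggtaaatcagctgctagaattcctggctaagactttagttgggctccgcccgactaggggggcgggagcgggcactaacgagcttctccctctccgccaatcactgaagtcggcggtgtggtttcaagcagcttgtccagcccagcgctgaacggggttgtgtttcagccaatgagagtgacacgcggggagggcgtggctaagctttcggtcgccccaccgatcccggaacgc
Irf1 (chr11:53769764-53770063, plus strand): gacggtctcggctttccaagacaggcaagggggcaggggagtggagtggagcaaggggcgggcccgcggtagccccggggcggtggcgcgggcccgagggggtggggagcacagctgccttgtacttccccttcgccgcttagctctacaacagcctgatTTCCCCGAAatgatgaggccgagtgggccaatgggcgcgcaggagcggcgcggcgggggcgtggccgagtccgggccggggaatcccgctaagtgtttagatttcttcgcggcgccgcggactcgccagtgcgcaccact
Irf8 (chr8:120736108-120736407, plus strand): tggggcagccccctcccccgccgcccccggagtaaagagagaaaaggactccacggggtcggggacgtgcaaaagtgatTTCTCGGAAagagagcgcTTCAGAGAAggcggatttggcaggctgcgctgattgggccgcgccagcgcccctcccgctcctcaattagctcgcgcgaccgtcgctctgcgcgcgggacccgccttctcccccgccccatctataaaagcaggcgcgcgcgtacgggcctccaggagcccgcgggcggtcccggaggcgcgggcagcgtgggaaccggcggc
Irf7 (chr7:141266375-141266674, minus strand): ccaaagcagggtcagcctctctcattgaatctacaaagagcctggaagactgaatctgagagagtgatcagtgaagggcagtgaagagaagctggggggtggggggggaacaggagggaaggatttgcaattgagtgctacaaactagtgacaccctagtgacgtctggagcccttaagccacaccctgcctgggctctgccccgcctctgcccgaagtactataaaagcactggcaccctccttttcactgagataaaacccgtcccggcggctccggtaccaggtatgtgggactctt

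The Stat2 window held 1 ISRE match, TTTCAGTTTC, from 222 to 213 bases before the start. The Irf1 window held 1 GAS match, TTCCCCGAA, from 90 to 82 bases before the start. The Irf8 window held 2 GAS matches, TTCTCGGAA and TTCAGAGAA, beginning 171 and 153 bases before the start. Irf1 and Irf8 each have a second annotated start, not printed here, whose window held neither string. The Irf7 window, and both windows of Irf9, held neither string. Among the receptors, Ifnar1 and Ifnar2 each had 1 GAS match and Ifngr1 and Ifngr2 had none. ISRE strings occurred in 3.44% of all 32851 promoter windows and GAS strings in 8.30%, against 1 and 4 of the 12 windows of the members. The 2 strings do not overlap in any of the windows printed. A match describes letters only, and whether a factor binds there was not measured.

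The receptor for type I interferon was read weakly. Ifnar1, its first chain, was followed by probe set 1449026_at, which gave 6.95 in GFPhigh, 6.82 in GFPlow, 6.44 in Dox minus and 6.86 in Dox plus. The 4 values lay within 0.50 of each other, with GFPhigh highest and Dox minus lowest. The second Ifnar1 probe set (1442222_at) was under the floor on all arrays, between 3.42 and 4.46. Ifnar2, the other chain, was under the floor in all 3 of its probe sets on all 4 arrays, with its strongest probe set between 2.31 and 3.996. Ifnar2 was therefore the only one of the 9 members without a measured difference, and its absence from the measured genes says only that these probe sets gave no usable signal.

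The receptor chains for interferon gamma were read far above the floor. Ifngr1, the ligand-binding chain, gave 11.67 in GFPhigh, 11.11 in GFPlow, 10.68 in Dox minus and, in Dox plus, 10.65. GFPhigh was highest, and the Dox arrays were within 0.03 of each other. Ifngr2, the signalling chain, gave 11.04, 10.76, 10.27 and 10.97 on the same arrays in the same order (probe set 1423557_at), with Dox minus lowest. The second Ifngr2 probe set stayed between 3.08 and 3.27.

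Stat2, the STAT protein specific to type I and type III signalling, was read by a pair of probe sets that gave the same order within each pair of arrays. Probe set 1450403_at gave 7.91 in GFPhigh, 7.48 in GFPlow, 10.36 in Dox minus and 7.94 in Dox plus. Probe set 1421911_at gave 6.90, 6.12, 8.29 and 5.30. In both, Dox minus stood above the other arrays by more than 1 unit, and GFPhigh was above GFPlow.

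Irf9, the DNA-binding partner of Stat2, gave 10.06 in GFPhigh, 9.25 in GFPlow, 10.86 in Dox minus and 9.83 in Dox plus. Dox minus was highest and GFPlow lowest. Irf7 gave 10.83, 9.55, 11.62 and 9.04, so that it was highest in Dox minus and lowest in Dox plus. Irf1, which drives antigen presentation genes among others, gave 12.54, 12.07, 11.23 and 10.43, with both GFP arrays above both Dox arrays and the first of each pair above the second.

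Irf8, known chiefly as a factor of myeloid and B cell development, was well above the floor on every array. Probe set 1416714_at gave 10.19 in GFPhigh, 10.50 in GFPlow, 11.05 in Dox minus and 11.06 in Dox plus. Probe set 1448452_at gave 8.82, 8.94, 8.93 and 9.13. In contrast to the other factors, Irf8 was not lower in GFPlow or in Dox plus in either probe set. Of the myeloid and pan-leukocyte markers, 2 of 10 reached the floor in GFPhigh, 4 in GFPlow and 5 on each Dox array. In GFPhigh these were Csf1r, at 5.52, and Cd14, at 13.39. The pan-leukocyte gene Ptprc read 2.47 in GFPhigh, 4.41 in GFPlow, 7.19 in Dox minus and 6.58 in Dox plus. The defining B cell genes Cd79a, Cd79b and Ms4a1 were under the floor on all 4 arrays, as were the myeloid genes Itgam, Itgax and Tyrobp. Other genes of these lineages did reach it. Laptm5 and Lyz2 were above the floor on every array but GFPhigh. Of the B and plasma cell genes, Ighm reached 5.14 on the GFPhigh array and Jchain 7.53 on the Dox minus array. Which cells gave the Irf8 signal was not tested.

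**Figure D1:**
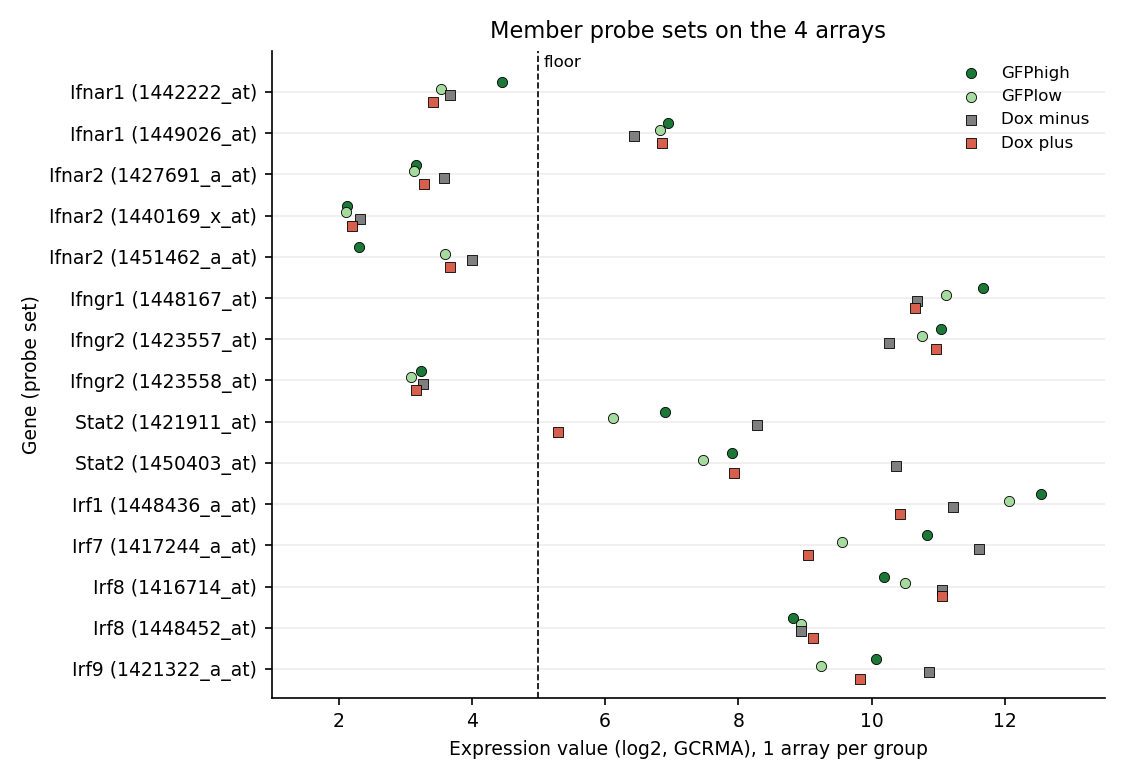
Expression values (log2, horizontal axis) of the 15 probe sets of the members on the 4 arrays, 1 point per array, with the floor of 5 as a dashed line. The 5 probe sets left of the line were under the floor on all arrays, the other 10 were above it on all arrays, and the Dox minus square of both Stat2 probe sets stands to the right of the other points.

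The first comparison asked how these genes differ between proliferating and non-proliferating crypt cells. Of the 8 measured members, 7 had lower values in GFPlow. Irf7 alone was at least 2-fold lower, by 2.42-fold (difference -1.27), and 0 members were at least 2-fold higher. Across all 9381 genes measured in this pair, 4389 had lower values in GFPlow, 4.3% were at least 2-fold lower and 8.81% at least 2-fold higher. The median difference of the members was -0.45, beside 0.04 over all genes.

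Among the factors, Irf9 followed Irf7 with a difference of -0.82 (1.76-fold). Irf1 differed by -0.47 and Stat2 by -0.43, or by -0.78 in its second probe set. Irf8 was the only measured member above 0, at 0.31 and, in its second probe set, 0.13. None of the receptor chains reached 2-fold. Ifngr1 differed by -0.56 (1.47-fold), more than Irf1 and than the first Stat2 probe set, Ifngr2 by -0.28 and Ifnar1 by -0.12. Ranked from the lowest difference upwards among the 9381 genes, Irf7 was number 201, Irf9 number 654 and Ifngr1 number 1269. At a 3-fold threshold, 0 of the 8 members were lower, against 0.991% of all genes.

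The second comparison asked how the same genes differ after doxycycline in mice with inducible β-catenin. Of the 5 factors 4 were lower in Dox plus, the exception being Irf8, while the measured receptor chains were higher or nearly equal. Irf7 was 5.96-fold lower (difference -2.58), Stat2 5.37-fold (-2.43) and Irf9 2.05-fold (-1.04). These 3 of the 8 measured members passed 2-fold in this direction and 0 were at least 2-fold higher, beside 5.35% lower and 6.93% higher among all 9537 genes measured. A lower value of any size in Dox plus was found for 4288 of these 9537 genes. Irf7 and Stat2 also passed 3-fold, as 2.15% of all genes did in this direction. Irf7 was number 75 from the lowest of the 9537 genes, Stat2 number 89 and Irf9 number 489.

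The second Stat2 probe set gave a difference of -2.99, larger in size than the first. Its value in Dox plus, 5.30, was close to the floor. Irf1 differed by -0.80 (1.74-fold) and did not reach 2-fold. The difference of Irf8 was 0.01 in the probe set that stands for the gene and 0.19 in the other. The 5 factors had a median of -1.04.

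Of the 3 measured receptor chains, 2 were higher and 1 nearly equal. A higher value of any size in Dox plus was found for 5249 of all 9537 genes measured. Ifngr2 was 1.62-fold higher in Dox plus (0.70), Ifnar1 1.33-fold higher (0.41), and Ifngr1 was within 1.02-fold (-0.03). Their median was 0.41, and none reached 2-fold. Counted from the highest difference among the 9537 genes, Ifngr2 was number 1290 and Ifnar1 number 2434. The median over all 8 measured members was -0.42, beside 0.06 over all genes.

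**Figure D2:**
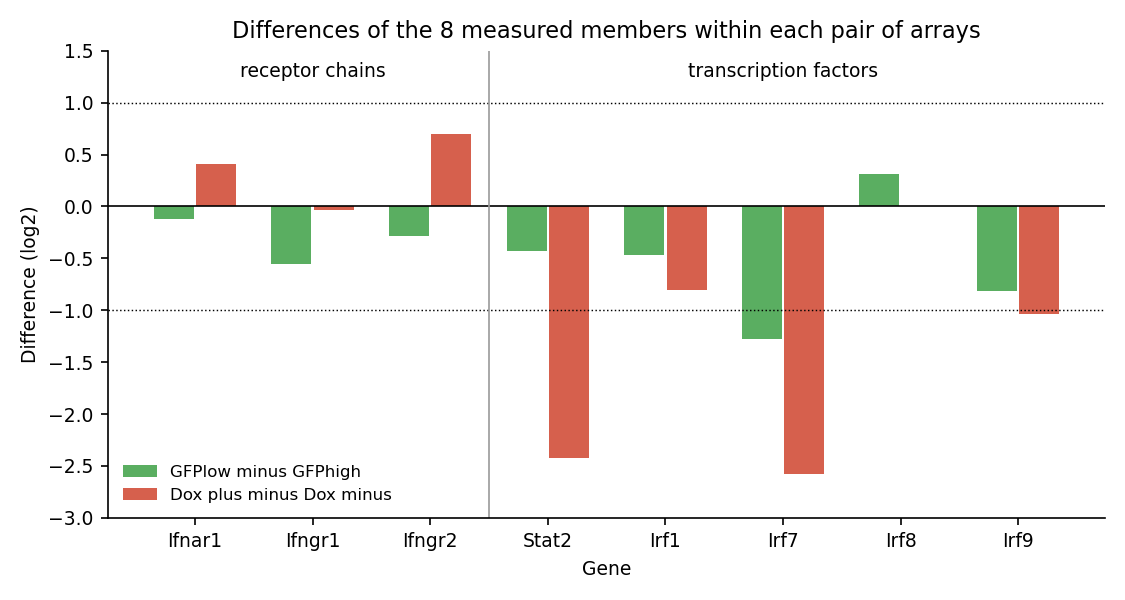
Differences on the log2 scale (vertical axis) of the 8 measured members, each the difference between 2 arrays, for GFPlow minus GFPhigh (green) and Dox plus minus Dox minus (red). Dotted lines mark 2-fold. Irf7 passes the lower line in both pairs, Stat2 and Irf9 pass it in the Dox pair and not in the GFP pair, and Ifngr2 and Ifnar1 are above 0 in the Dox pair.

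The 2 pairs share no array. Irf7, Irf9, Stat2 and Irf1 were each lower in GFPlow than in GFPhigh and in Dox plus than in Dox minus. Stat2 differed by -0.43 in the first pair and -2.43 in the second, while Irf9 differed by -0.82 and -1.04. Ifnar1 and Ifngr2 were lower in GFPlow and higher in Dox plus. The order of levels over the 4 arrays also varied. Irf7 and one Stat2 probe set ran from Dox minus through GFPhigh and GFPlow to Dox plus, Irf9 from Dox minus through GFPhigh and Dox plus to GFPlow, and Irf1 and Ifngr1 from GFPhigh through GFPlow and Dox minus to Dox plus. Since no array was repeated, it is not known which neighbours in these orders differ by more than the spread between arrays.

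**Figure D3:**
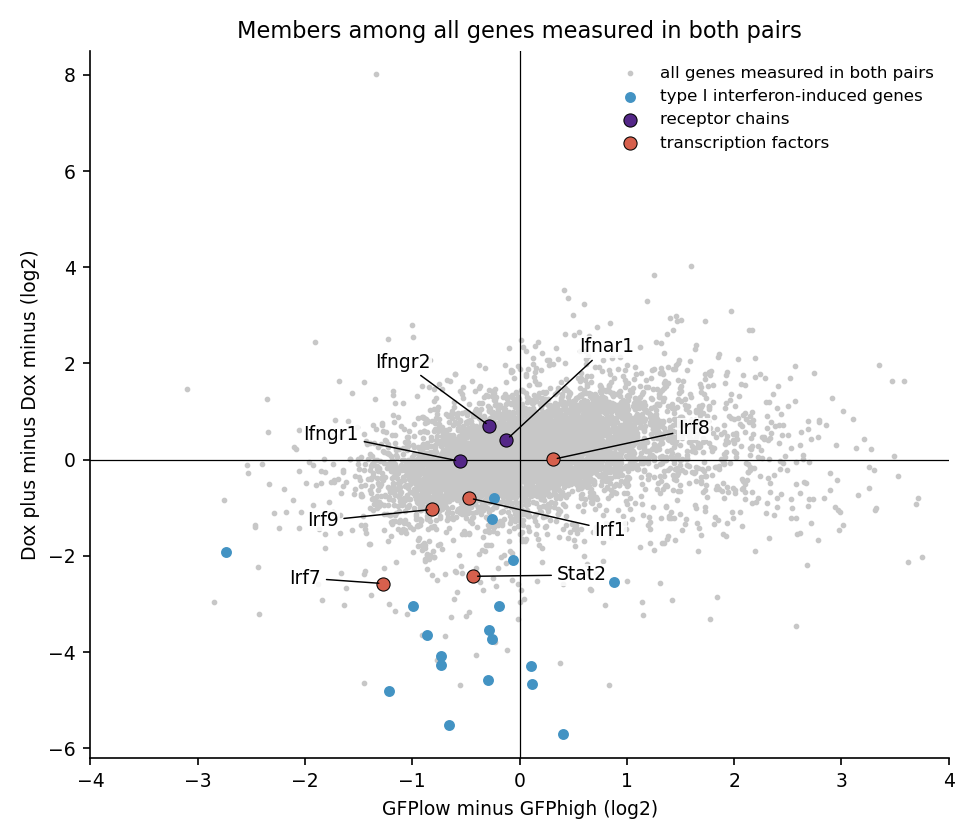
Each point is a gene measured in both pairs, placed by its difference GFPlow minus GFPhigh (horizontal, log2) and Dox plus minus Dox minus (vertical, log2). Irf7 (-1.27 and -2.58) and Stat2 (-0.43 and -2.43) lie below most genes in the vertical direction and above most of the type I interferon-induced genes in blue (median of the list -3.65), and the receptor chains in purple lie near 0 in the vertical direction or above it.

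For the 3 members past 2-fold in the Dox pair, the genes nearest in both differences were found among 8578 genes at or above the floor on all 4 arrays, by Euclidean distance over the 2 log2 differences. Nearest to Stat2 were Psmb8, an immunoproteasome subunit (distance 0.12), Igtp, an interferon-inducible GTPase (0.14), and Naip6 (0.17). Nearest to Irf9 were Il22ra1, a chain of the interleukin 22 receptor (0.03), Btbd9 (0.03) and Batf2 (0.04). Nearest to Irf7 were Bmp2, a bone morphogenetic protein (0.26), Tppp (0.27) and Slc35d1 (0.31). The measure uses 4 arrays only, so genes can lie close without any other likeness.

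Upstream of the members, the ligands gave no signal. All 10 interferon genes with a probe set of their own, Ifnb1 and Ifng among them, were under the floor on all 4 arrays, so that no ligand difference could be set beside those of the factors. Ifnb1 read 2.30 in GFPhigh, 2.35 in GFPlow, 2.55 in Dox minus and 2.42 in Dox plus. Ifng read 2.66, 2.64, 2.87 and 2.72.

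The type III receptor chains were both measured and both were lower in the second array of each pair. Il10rb gave 12.01 in GFPhigh, 11.45 in GFPlow, 11.94 in Dox minus and 11.46 in Dox plus. Ifnlr1 gave 6.05, 5.56, 5.83 and 5.57. Il10rb lies on chromosome 16 between Ifnar2 and Ifnar1, with Ifngr2 next in the order of protein-coding genes (RefSeq, GRCm38.p6). These neighbours went different ways in the Dox pair, with Il10rb at -0.47, Ifnar1 at 0.41 and Ifngr2 at 0.70.

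None of the measured Janus kinases passed 2-fold in either pair. In the Dox pair Tyk2, which serves Ifnar1, differed by -0.40, Jak2, which serves Ifngr2, by -0.35 and Jak1 by -0.23, while Jak3 was under the floor. In the GFP pair Tyk2 differed by -0.58, Jak2 by -0.39 and Jak1 by 0.00. Other probe sets of these kinases gave other sizes. A second Jak2 probe set differed by -0.62 in the Dox pair and -0.87 in the GFP pair, and a Jak1 probe set by 0.09 and 0.56. Of the other STATs, 4 of 5 with a probe set were measured, and 0 passed 2-fold in either pair. Their differences in the Dox pair were -0.58 for Stat5b, -0.16 for Stat3, -0.15 for Stat6 and -0.08 for Stat5a, while Stat4 was under the floor. These values lie nearer to 0 than those of Stat2, Irf7 and Irf9.

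Of the other IRFs, Irf2, a repressor at Irf1 target sites, differed by 0.06 in the Dox pair and Irf3, the constitutive factor that starts interferon transcription, by 0.20. In the GFP pair they differed by -0.28 and 0.09. The probe sets of Irf3 disagreed in sign. They ran from -1.21 to 0.89 in the GFP pair and from -0.54 or beyond to 0.48 in the Dox pair. Irf5 reached the floor in GFPlow only, where it read 7.64 against 4.08 in GFPhigh, a difference of at least 2.64, and it was under the floor on both Dox arrays. Irf4 was under the floor throughout.

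Over all genes measured in the Dox pair, 5.35% were at least 2-fold lower, and among 10 measured negative regulators 1 was. This was Usp18, a protease that removes ISG15 and blocks signalling at Ifnar2, which is itself interferon-induced and differed by -5.70. Socs3 followed at -0.84 and Socs1 was under the floor. In the GFP pair, where 4.3% of all genes were at least 2-fold lower, Pias3 alone passed 2-fold (-1.05). Among 10 measured sensors and adaptors that lie before interferon production, 3 passed 2-fold with Dox plus lower. They were Zbp1 (-4.16), the RNA sensor Ifih1 (-1.86) and Tlr3 (-1.04). The median of the 10 was -0.28, with 8 below 0 and 2 above. Whether Zbp1, Ifih1 and Tlr3 differed ahead of interferon signalling or as its targets was not tested. In the GFP pair 0 of 10 passed 2-fold.

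Downstream, the induced genes were lower in Dox plus, as were Irf7, Stat2, Irf9 and Irf1, whereas Ifnar1 and Ifngr2 were higher and Ifngr1 was nearly equal. Over all 9537 genes measured in this pair, 5.35% were at least 2-fold lower, 4288 were below 0 and 5249 above 0. Of 19 measured genes on a list of type I interferon-induced genes, 18 had values lower by 2-fold or more in Dox plus, and all 19 were below 0 (median -3.65). Besides Usp18, the largest differences on this list were Rsad2 (-5.52 or beyond, since Dox plus was under the floor), Ddx60 (-4.81) and Ifit1 (-4.66). Of 15 measured genes on a list of interferon gamma and Irf1-induced genes, 12 passed 2-fold in the same direction (median -2.20). They included Gbp6 (-4.22 or beyond), Gbp3 (-3.96), Gbp2 (-3.65) and Igtp (-2.55). In both lists the median difference was larger in size than the median of the 5 factors, -1.04. Irf1 itself differed by -0.80.

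In the GFP pair the induced genes were nearer to 0. Over all 9381 genes measured in this pair, 4.3% were at least 2-fold lower. Of 18 measured type I interferon-induced genes, GFPlow was lower by 2-fold or more for 2, Mx1 (-2.74 or beyond) and Ddx60 (-1.22), with a median of -0.27. Of 16 measured interferon gamma and Irf1-induced genes 2 were, Ciita (-1.76 or beyond) and Nlrc5 (-1.64 or beyond), the regulators of MHC class II and class I genes, with a median of -0.34. With a floor of 6 this count was 0, and with a floor of 4 or none it was 4. Irf7, at -1.27, and Irf9, at -0.82, thus lay below the medians of both induced lists in this pair. So did Ifngr1 (-0.56), Irf1 (-0.47) and Stat2 (-0.43), whereas Ifngr2 (-0.28), Ifnar1 (-0.12) and Irf8 (0.31) were not below both. Both lists hold genes picked as interferon targets with earlier results of these arrays known, so their direction is a description.

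**Figure D4:**
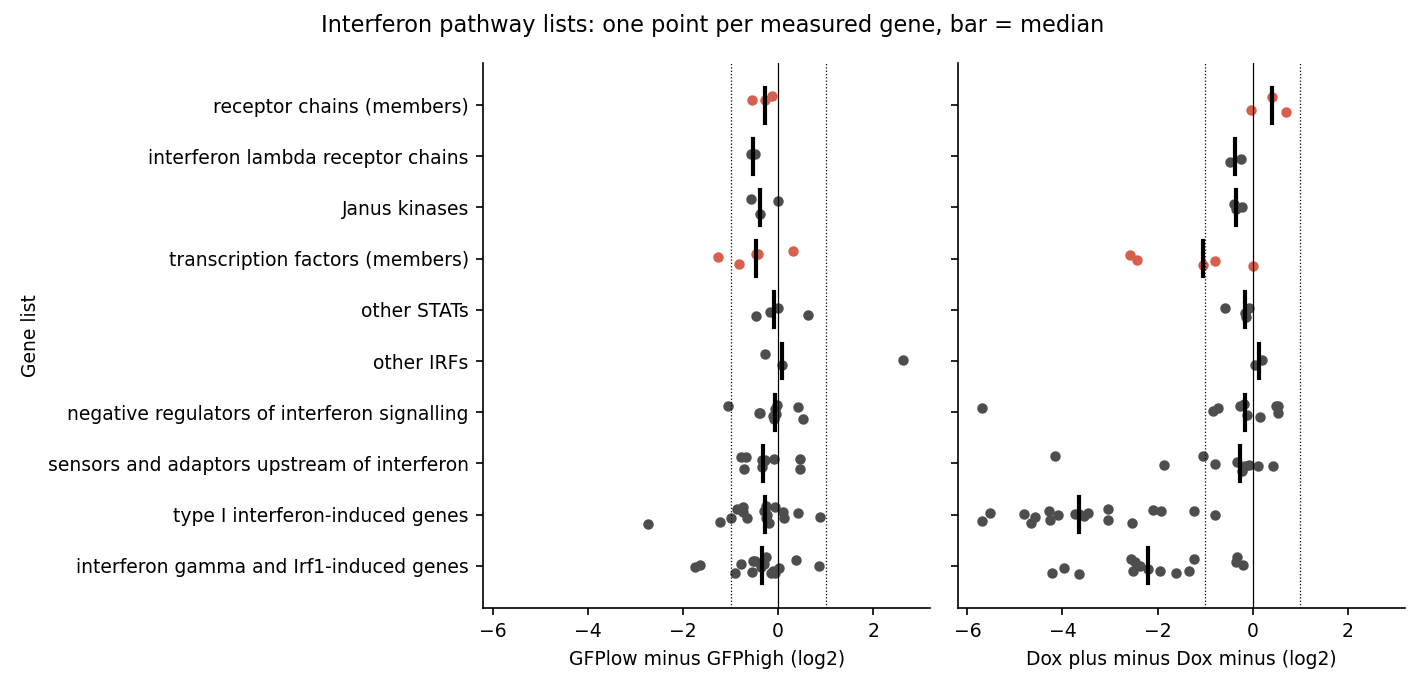
Differences (log2, horizontal) of measured genes in each interferon pathway list, GFP pair on the left and Dox pair on the right, with 1 point per gene, a black bar at the median and dotted lines at 2-fold. In the Dox pair the medians are 0.41 for the receptor chains, -1.04 for the factors and -3.65 for the type I interferon-induced genes.

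Strings of the ISRE kind shown above for Stat2 were also counted in the promoters of all measured genes that had a window. They occurred in 45 of 395 genes at least 2-fold lower in Dox plus (11.4%), in 227 of 6858 genes under 2-fold (3.31%) and in 16 of 557 genes at least 2-fold higher (2.87%). The corresponding shares of GAS strings, as found in Irf1 and Irf8, were 9.11%, 8.05% and 6.64%. Stat2 is among the 45 genes, whereas Irf7 and Irf9 were lower without either string in these windows. Only matches to these strings within these windows were counted, and their part in the differences was not tested.

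Markers of other cells were measured beside these differences. In the Dox pair the plasma cell gene Jchain read 7.53 in Dox minus and 4.32 in Dox plus, the leukocyte gene Laptm5 7.58 and 6.05, and the mesenchymal gene Vim 8.43 and 6.64. The myeloid gene Lyz2 went the other way, with 5.59 and 6.30. The intraepithelial lymphocyte integrin Itgae read 6.75 and 6.93. The T and natural killer cell markers Cd8a and Gzmb were lower in Dox plus, with 5.27 and 5.02 for Cd8a and 6.75 and 6.49 for Gzmb. Ptprc was lower as well, with 7.19 and 6.58, and the differences of Csf1r and Cd14 were -0.08 and -0.02. The T cell and natural killer cell markers that reached the floor were 3 of 8 on both Dox arrays, and those of myeloid cells 5 of 10 on both. The median of the T cell list was 3.91 in Dox minus against 3.39 in Dox plus, and that of the myeloid list 4.95 against 4.89. These medians were under the floor. So were the array medians over all probe sets, 3.52 in Dox minus and 3.37 in Dox plus. Of the B and plasma cell list, 1 of 5 genes on the array reached the floor in GFPhigh (Ighm) and in Dox minus (Jchain), and 0 did in GFPlow and Dox plus. The stromal and endothelial list had 2 of 8 genes at the floor in Dox minus and 1 in Dox plus. Its medians, 3.10 and 2.95, were under the floor as well. In the GFP pair the same lists had 1 of 8 T cell genes on both arrays, and 1 and 2 of 8 stromal genes. The T cell gene was Itgae, which was higher in GFPlow (6.53) than in GFPhigh (5.50), a difference of 1.03. The part of such cells in the differences of Stat2, Irf7 and Irf9 was not tested.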

How the data were processed

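The authors deposited 1 log2 expression value for each of 45101 probe sets on each of 4 arrays. Per the submitters' processing notes the method was GCRMA. The sources used here state neither its version nor whether all arrays were run through it jointly. GCRMA subtracts a background modelled from probe sequence, so low values carry little information on abundance. The log2 scale was read from the range of the values, 0.47 to 16.27.

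Probe sets were named from the platform annotation: 34958 had 1 symbol, 932 had several and 9211 had none. Only the first kind was used. Symbols were brought up to date through RefSeq gene identifiers, which were found for 34754 probe sets, and 0 symbols changed. Where a gene had several probe sets, the one with the highest average across all 4 arrays stood for it. Values under 5 were set to 5 before differences were taken within a pair, and a difference with 1 array under 5 is a bound. No test was possible with 1 array per group, and so small a number of arrays limits the precision. The calculation was run on simulated differences (Python 3.11.15, pandas 2.3.3, statsmodels 0.14.6). These were added without noise to probe sets well above the floor, so that run checked the arithmetic only.

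All members are named. Of each pathway list, genes past 2-fold are named, up to 4 a list for each pair described, with every gene of the shortest lists. Ifnb1, Ifng, Socs1, Socs3 and the marker genes given with values were named outside this rule, after their values were seen. The members and lists were chosen with earlier results of these data known. Some genes of the pathway lists are not analysed here. Alternatives were floors of 4 and 6, no floor, quantile and loess scaling (span 0.4), the mean of probe sets, leaving out some probe set types, and a 3-fold threshold.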

Additional observations from a re-analysis of the deposited data

How the results depend on the processing

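Of 106 recomputed differences of single members, 104 kept their sign and their side of the 2-fold threshold. Many of them could not change. The probe sets that stand for the measured members were above 6 on all arrays, so no choice of floor altered their values. Leaving out suffixed probe sets, or averaging over a single measured probe set, also returned the same value for the members kept. The count of 104 is therefore not a measure of robustness. The exceptions were those of Irf8 in the Dox pair, which changed from 0.01 to -0.04 with quantile normalization and -0.05 with loess. In the Dox pair, Irf7 ran from -2.63 to -2.58 over its alternatives, Stat2 from -2.71 to -2.43 and Irf9 from -1.09 to -1.04. Irf1, Irf7 and Irf9 are each read by a single probe set ending in _a_at, so keeping only probe sets without an _x, _s or _a in their suffix removed them by construction. The members at least 2-fold lower were then 1 (Stat2) in the Dox pair and 0 in the GFP pair, and the median of the members in the Dox pair became 0.0066, the value of Irf8. At a 3-fold threshold 0 members were lower in the GFP pair. Of the pathway lists, the count of interferon gamma and Irf1-induced genes at least 2-fold lower in GFPlow was 2, and became 4 with a floor of 4 or none and 0 with a floor of 6. Without the suffixed probe sets, the counts lower in GFPlow became 1 instead of 2 for type I interferon-induced genes, 3 instead of 0 for sensors and adaptors, and 1 instead of 0 for other IRFs. A floor of 4, or none, put 1 sensor or adaptor instead of 0 at 2-fold higher in GFPlow, and the mean of probe sets put 2 negative regulators instead of 1 at 2-fold lower in Dox plus. The cause was not tested. No paired analysis was possible because each group is 1 array. Signal over background limits Ifnar2 and the interferon genes, which stayed under the floor.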
